A study of Homo sapiens with 12 samples.

Results

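OCI-AML2, an established human acute myeloid leukaemia line, was treated with selinexor at 200 nM for 36 h, and the 3 treated libraries were set against 3 libraries from cells given vehicle (DMSO). These 6 libraries are the OCI-AML2 samples among the 12 of the series, and they were chosen by cell line and treatment alone. Cells grew in RPMI medium with serum, the labels name no other agent or genetic change, and all 6 libraries come from the 1 line. Polyadenylated RNA was sequenced in read pairs without strand information. The submitters describe the triplicates as biologically independent. The question was how the transcriptome of this line differed after inhibition of nuclear export. The groups of genes described here lie beyond the cell cycle, p53 and histone genes.

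XPO1 is the export receptor that carries proteins with a leucine-rich export signal, and some RNA cargoes through adaptor proteins, from the nucleus to the cytoplasm through the nuclear pore. Selinexor binds a cysteine in the groove of XPO1 that would hold the export signal. Its cargoes include p53, other transcription factors, translation factors and ribosomal subunits. In myeloid cells, maturation brings lysosomal enzymes, the phagocyte oxidase and innate immune receptors, while leukaemic blasts keep a high output of ribosomes, proteasomes and nucleotides.

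Total counts were 9506571 to 11769061 with vehicle and 8650518 to 9774423 with selinexor, so the floor of 3 counts per library lay at 0.249 to 0.354 CPM, the TMM-scaled unit used for all levels here (it covers counting error only). Of 17099 genes in the table, 12086 passed the filter on low counts. By the quasi-likelihood test of edgeR, with p-values adjusted by Benjamini-Hochberg and a threshold of 0.05, 31.3% of these genes were called higher and 31.8% lower, 63.1% in all. At least 2-fold changes were fewer, 874 genes higher (7.23%) and 344 lower (2.85%). Libraries of a group had Spearman rank correlations of 0.995 to 0.997 across genes, and libraries of different groups of 0.960 to 0.962. A list with about 31% of its members called in a direction therefore sits at the background of this comparison. Throughout, "rose" and "fell" refer to genes that passed this test, values after ± are standard errors unless an SD is named, and CPM compares a gene with itself between libraries.

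Myelomonocytic markers were present. Of 18 tested, 13 rose and 3 fell, with a median log2 fold change of 0.58. Their summed level was 4639 to 4831 CPM with vehicle and 15783 to 16141 CPM with selinexor. Much of this gain was the lysozyme gene LYZ, which was 1613 to 1803 CPM with vehicle and 9411 to 9667 CPM with selinexor. Of 16 lymphocyte markers, 4 passed the filter and all of these rose, with a summed level of 71.1 to 75.2 CPM with vehicle and 113 to 119.7 CPM with selinexor. Of 17 erythroid and megakaryocyte markers, 3 passed (summed level 13.2 to 14.3 CPM with vehicle and 24.3 to 27.0 CPM with selinexor), and 1 of 14 epithelial, endothelial and fibroblast markers did. The 1 erythroid and megakaryocyte marker called was ITGA2B, at 0.986 to 1.74 CPM with vehicle and 12.6 to 16.0 CPM with selinexor. The 176 cell cycle genes set aside fell in 174 cases, with a summed level of 27666 to 27832 CPM with vehicle and 15109 to 15153 CPM with selinexor, and 30 of 45 p53 targets rose. The part of these shifts in the results that follow was not tested. In bulk RNA, fewer cells of a kind and less RNA per cell cannot be told apart.

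**Figure D1:**
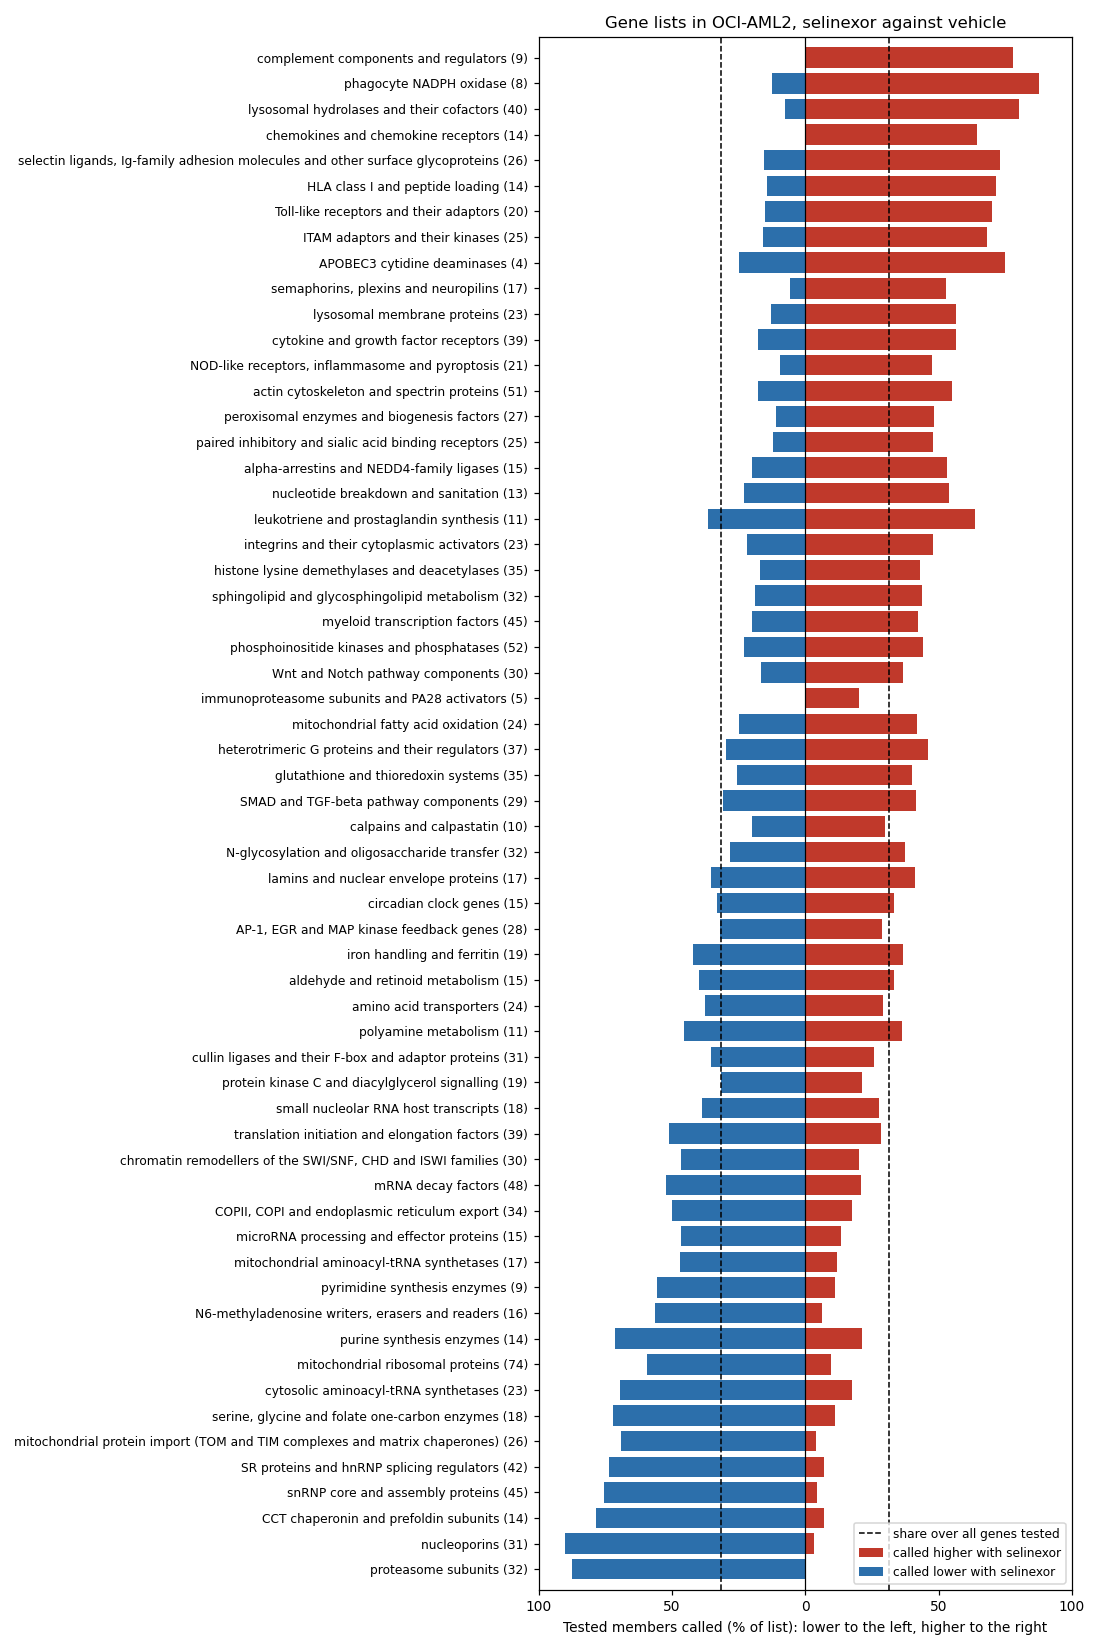
Share of tested members called higher (red, to the right) and lower (blue, to the left) in each gene list drawn, in percent, with the number tested in parentheses and dashed lines at the shares over all genes tested, 31.3% and 31.8%. Lists for the nuclear pore, proteasome, chaperonin and splicing factors lie at the bottom with members called lower. Lists for complement, NADPH oxidase, lysosomal hydrolases and chemokines lie at the top, and the lysosomal membrane list lies lower than these.

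XPO1 itself, the target of the drug, was 465, 420.0 and 443 CPM with vehicle and 675, 692 and 682 CPM with selinexor. Every selinexor library lay above every vehicle library, as in 33.0% of all tested genes, and the log2 fold change was 0.63 ± 0.040 (adjusted p = 9.4e-18). The pore through which it travels moved the other way. Of 31 nucleoporins, 28 fell (90.3%), and the median log2 fold change of the list was -0.42. NDC1, which anchors the pore in the membrane, was 146, 141 and 132 CPM with vehicle and 72.7, 71.6 and 75.1 CPM with selinexor. The groups did not overlap, with selinexor lower as in 33.3% of tested genes (66.3% did not overlap in either direction), and the log2 fold change was -0.94 ± 0.055. NUP93, a scaffold of the inner ring, changed by -0.84 ± 0.056 on the log2 scale, and NUP58, of the central channel, by -0.78 ± 0.055. The exception was NUP210, a membrane nucleoporin (0.12 ± 0.040, adjusted p = 0.00939), which missed the threshold without selinexor library 1 (adjusted p = 0.0518). KPNA2, an import receptor that recognises classical import signals, fell from 318 ± 9.67 CPM with vehicle to 93.1 ± 4.70 CPM with selinexor (SD, n = 3).

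The nuclear envelope was divided. LBR, the lamin B receptor, had a log2 fold change of -1.07 ± 0.041, TMPO, a lamina-associated protein, of -0.97 ± 0.039, and LMNB1, which forms the B-type lamina, of -0.77 ± 0.040. SUN2, which links the lamina to the cytoskeleton, rose by 0.83 ± 0.041. In all, 7 of the 17 lamina and envelope genes tested rose and 6 fell, so that the list as a whole sat near the background in both directions.

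Genes for RNA processing were lower in most cases. Of 42 SR and hnRNP splicing regulators, 31 fell and 3 rose, with a median log2 fold change of -0.40. HNRNPAB, an hnRNP that binds nascent transcripts, was 548, 570.4 and 586 CPM with vehicle and 291, 289.7 and 289.8 CPM with selinexor. Vehicle and selinexor libraries did not overlap, with a log2 fold change of -0.97 ± 0.039 (adjusted p = 1.6e-24). Abundant members fell as well, with log2 fold changes of -0.80 ± 0.039 for HNRNPC and -0.75 ± 0.038 for HNRNPU. Those that rose were CLK1 (0.70 ± 0.10) and CLK4 (0.67 ± 0.13), kinases that phosphorylate SR proteins, and HNRNPH2 (0.31 ± 0.057). Of 45 snRNP core and assembly genes, 34 fell, among them SNRPD1 (-0.64 ± 0.052) of the Sm ring and PRMT5 (-0.67 ± 0.048), which methylates Sm proteins before assembly. SF3B6 (0.20 ± 0.055) and SNRNP70 (0.15 ± 0.044) rose by small amounts, and the call of SNRNP70 was lost without vehicle library 2 (adjusted p = 0.0557).

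mRNA decay factors fell in 25 of 48 cases and rose in 10. EXOSC9, a core subunit of the RNA exosome, changed by -0.99 ± 0.072, while the antiproliferative deadenylase cofactors BTG1 (1.46 ± 0.052) and BTG2 (1.62 ± 0.11, also a p53 target set aside) rose. Among 15 microRNA pathway genes, 7 fell and 2 rose. Those that fell included the pre-microRNA export receptor XPO5 (-0.64 ± 0.045) and LIN28B (-0.65 ± 0.075), which blocks let-7 maturation. N6-methyladenosine genes fell in 9 of 16 cases, a count that was 5 without selinexor library 3 and 4 with upper quartile scaling. METTL3, the catalytic writer, was the member called higher (0.17 ± 0.065), and this call was lost under 5 alternatives, including DESeq2 (adjusted p = 0.109).

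Small nucleolar RNA host transcripts did not move as a block. SNHG1 was 89.3, 94.9 and 102 CPM with vehicle and 43.9, 47.6 and 47.9 CPM with selinexor, with a log2 fold change of -1.04 ± 0.066, whereas GAS5 rose by 0.34 ± 0.042 and SNHG29 by 0.75 ± 0.042. Of 18 tested, 5 rose and 7 fell. The rises of SNHG8 (0.91 ± 0.23) and SNHG6 (0.40 ± 0.11) each missed the threshold without vehicle library 1 or without any of the 3 selinexor libraries (adjusted p 0.0651 to 0.0825 and 0.0723 to 0.0918). SNHG5 rose by 0.21 ± 0.044.

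Most proteasome genes fell. Of 32 tested proteasome subunits, 28 fell (87.5%), with a median log2 fold change of -0.53. PSMD11, a lid subunit of the regulatory particle, was 152, 151 and 149 CPM with vehicle and 79.9, 75.7 and 68.6 CPM with selinexor. All 3 selinexor libraries were lower than all 3 vehicle libraries, and the log2 fold change was -1.01 ± 0.055 (adjusted p = 4.2e-20). PSMD2 (-0.81 ± 0.040), a large base scaffold, PSMD3 (-0.67 ± 0.042), of the lid, and PSMC4 (-0.88 ± 0.062), one of the ATPases, fell as well. The other 4 subunits, PSMA1, PSMA2, PSMA6 and PSMD4, did not pass the test. PSMA6 was the member farthest above 0 (0.81 ± 0.41, adjusted p = 0.0736), and it passed as higher without vehicle library 3 (1.52, adjusted p = 0.00542). It also passed as higher with voom (0.98, adjusted p = 0.0311) and after thinning to the smallest library (0.96, adjusted p = 0.0407). Of the 5 immunoproteasome and PA28 genes, PSME1, a PA28 subunit, was the one called, and it rose by 0.59 ± 0.056. The count of rises in that short list was 2 without vehicle library 1 or 3.

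Most chaperonin, mitochondrial import and mitochondrial ribosomal protein genes fell too. CCT chaperonin and prefoldin subunits, which fold actin and tubulin, fell in 11 of 14 cases, led by CCT6A (-0.71 ± 0.038), with PFDN5 higher (0.67 ± 0.064). Mitochondrial import genes fell in 18 of 26. TIMM10, a chaperone of the intermembrane space, was 73.8, 75.8 and 76.7 CPM with vehicle and 39.9, 34.8 and 37.2 CPM with selinexor. Its groups did not overlap, and its log2 fold change was -1.02 ± 0.070. TOMM40, the import channel, changed by -0.96 ± 0.042, and the exception was TOMM7 (0.40 ± 0.093). Mitochondrial ribosomal proteins fell in 44 of 74 cases, with MRPS11 at -0.90 ± 0.077, and 7 rose, with MRPL44 at 0.44 ± 0.058.

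Cytosolic aminoacyl-tRNA synthetases, which load amino acids onto tRNA, fell in 16 of 23 cases. YARS (-0.86 ± 0.046), VARS (-0.73 ± 0.044) and AARS (-0.68 ± 0.049) were the lowest. QARS (0.41 ± 0.039), DARS (0.40 ± 0.050), LARS (0.13 ± 0.042) and the scaffold protein EEF1E1 (0.57 ± 0.14) rose, LARS not without vehicle library 1 (adjusted p = 0.0833). Mitochondrial synthetases fell in 8 of 17 cases and rose in 2, PARS2 (0.73 ± 0.15) and IARS2 (0.11 ± 0.039, adjusted p = 0.0652 without selinexor library 3).

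Translation factors moved in both directions. The cap-binding protein EIF4E fell from 90.8 ± 3.14 CPM with vehicle to 50.9 ± 0.682 CPM with selinexor (SD, n = 3), and EIF5A, which relieves stalled ribosomes, from 1443 ± 18.6 CPM with vehicle to 867 ± 6.47 CPM with selinexor (SD, n = 3). Their log2 fold changes were -0.84 ± 0.063 and -0.74 ± 0.037. The elongation factors EEF1A1 (0.38 ± 0.037) and EEF2 (0.40 ± 0.038) rose instead, as did the helicase EIF4A2 (0.68 ± 0.040). Over the 39 factors tested, 20 fell and 11 rose.

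**Figure D2:**
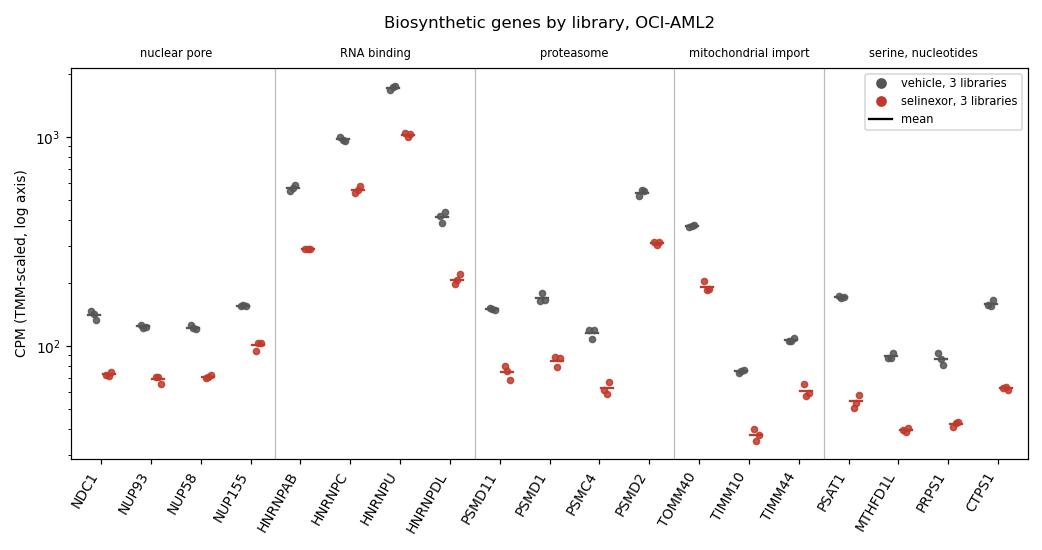
CPM of nuclear pore, RNA-binding, proteasome, mitochondrial import and biosynthetic genes in each vehicle (grey) and selinexor (red) library on a log axis, with a bar at each group mean. For each gene drawn, the 3 selinexor points lie below the 3 vehicle points.

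Synthesis and breakdown of nucleotides moved in opposite directions for many enzymes. Purine synthesis fell in 10 of 14 enzymes and rose in 3 (APRT 0.40 ± 0.042, IMPDH1 0.29 ± 0.052 and IMPDH2 0.15 ± 0.039). PRPS1, which makes the ribose donor for nucleotide synthesis, was 92.1, 86.4 and 80.7 CPM with vehicle and 40.9, 42.6 and 43.2 CPM with selinexor. The selinexor libraries were the lower ones throughout, with a log2 fold change of -1.03 ± 0.068. CTPS1, the CTP synthase of dividing lymphoid and myeloid cells, was 157, 154 and 166 CPM with vehicle and 62.9, 63.6 and 61.4 CPM with selinexor, again without overlap (-1.34 ± 0.055, adjusted p = 1.3e-24). Of the 9 pyrimidine enzymes, 5 fell, and CAD, which starts the pathway, rose (0.41 ± 0.052).

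Enzymes that break nucleotides down were higher in 7 of 13 cases and lower in 3 (NT5C, PNP and DPYD). TYMP, thymidine phosphorylase, was 22.1, 20.2 and 22.2 CPM with vehicle and 118, 121 and 123 CPM with selinexor. This was a log2 fold change of 2.49 ± 0.071, with no overlap of the groups. Reads over its shared exons with ODF3B and SCO2 cannot be assigned with certainty. Cytidine deaminase CDA (1.12 ± 0.072), adenosine deaminase ADA2 (1.33 ± 0.094) and the dNTP hydrolase SAMHD1 (1.01 ± 0.046) rose too.

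Serine and one-carbon metabolism, which supplies carbon units to purines and thymidylate, fell in 13 of 18 enzymes. PSAT1, an aminotransferase of serine synthesis, was 173, 170.0 and 171 CPM with vehicle and 50.6, 53.4 and 58.3 CPM with selinexor. It showed no overlap and a log2 fold change of -1.66 ± 0.057 (adjusted p = 1.8e-27). MTHFD1L, which releases formate from mitochondria, changed by -1.17 ± 0.066. PSPH, the last enzyme of serine synthesis, rose (0.36 ± 0.11). Amino acid transporters moved both ways, 7 higher and 9 lower of 24. SLC43A2, a transporter of large neutral amino acids, was 4.33, 5.89 and 5.20 CPM with vehicle and 76.6, 71.1 and 67.8 CPM with selinexor (3.79 ± 0.12), while SLC7A5, which carries many of the same substrates, fell by 0.70 ± 0.038. SLC7A7, an exporter of basic amino acids, changed by -2.25 ± 0.41. In polyamine synthesis, SRM, spermidine synthase, fell (-0.86 ± 0.043) and SMOX, spermine oxidase, rose (1.37 ± 0.18).

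Redox genes divided within 1 pathway. SLC7A11, the cystine importer that feeds glutathione synthesis, was 99.4, 88.2 and 94.8 CPM with vehicle and 279, 288 and 263 CPM with selinexor, with a log2 fold change of 1.56 ± 0.049. It overlaps an antisense gene, SLC7A11-AS1, whose reads cannot be told apart here. GCLM, the modifier subunit of glutamate-cysteine ligase and thus the next step, was 48.6, 49.1 and 46.2 CPM with vehicle and 14.4, 15.3 and 15.8 CPM with selinexor. Here the selinexor libraries were the lower ones, with a log2 fold change of -1.66 ± 0.093 (adjusted p = 3.5e-20). The catalytic subunit GCLC (-0.48 ± 0.069), the quinone reductase NQO1 (-1.36 ± 0.10) and the thioredoxin reductase TXNRD1 (-0.43 ± 0.042) fell. PIR (-1.36 ± 0.19) and ME1 (-1.61 ± 0.18), a source of NADPH, fell. NFE2L2, which encodes the transcription factor NRF2, had a log2 fold change of -0.10 ± 0.069 (adjusted p = 0.208). Catalase CAT (1.37 ± 0.039), PRDX5 (1.18 ± 0.052) and GPX1 (0.61 ± 0.038), which remove peroxides, rose. In all, 14 of 35 glutathione and thioredoxin genes rose (40%) and 9 fell (25.7%), near the 31.3% and 31.8% of all tested genes.

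The promoter of GCLM is printed because several of these genes are textbook targets of NRF2, which binds antioxidant response elements. It is the 250 bases before the RefSeq start (chr1:93909431-93909680, minus strand), with the match to the motif, TGAC and GCA separated by any 3 bases, in capitals (the match is on the other strand, so it reads reversed and complemented).
GCLM: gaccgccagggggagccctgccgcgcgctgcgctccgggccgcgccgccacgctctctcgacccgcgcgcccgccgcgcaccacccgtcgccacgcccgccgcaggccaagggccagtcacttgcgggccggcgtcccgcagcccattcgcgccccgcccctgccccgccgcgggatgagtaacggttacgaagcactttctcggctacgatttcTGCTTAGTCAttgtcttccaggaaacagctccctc
This motif, searched on both strands, was found in 3 of 26 promoters of the glutathione and thioredoxin list (11.5%) and in 3 of 27 of the proteasome list (11.1%), beside 2.25% of tested genes and 2.65% of all promoters in the table. Other lists held it at similar or higher shares, among them leukotriene and prostaglandin synthesis (3 of 11, 27.3%), the lamina and envelope (2 of 14, 14.3%) and amino acid transporters (2 of 20, 10%). The motif was thus not found in these lists alone. A match describes letters and not binding.

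Iron genes also moved in both directions. NCOA4, which delivers ferritin to lysosomes for iron release, was 213, 211 and 208 CPM with vehicle and 551, 542 and 541 CPM with selinexor. The groups lay apart, with a log2 fold change of 1.37 ± 0.039. The ferritin chains FTH1 (0.80 ± 0.041) and FTL (0.72 ± 0.040) and the iron exporter SLC40A1 (1.20 ± 0.17) rose. The transferrin receptor TFRC (-0.90 ± 0.040) and the importer SLC39A14 (-0.95 ± 0.057) fell. Of 19 iron genes tested, 7 rose (36.8%) and 8 fell (42.1%), beside 31.3% and 31.8% of all tested genes. The list as a whole thus sat near the background, and the count of falls was 5 without selinexor library 1.

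Aldehyde and lipid enzymes added single large changes. ALDH2, the mitochondrial enzyme that clears acetaldehyde, was 4.12, 4.56 and 2.87 CPM with vehicle and 89.5, 88.5 and 91.3 CPM with selinexor. Its log2 fold change was 4.54 ± 0.14, the groups being far apart. ALDH3B1 (2.59 ± 0.065) and ALDH6A1 (1.43 ± 0.10) rose, while ALDH9A1 (-0.71 ± 0.070) and the retinol dehydrogenase RDH10 (-1.07 ± 0.095) fell. Fatty acid oxidation genes rose in 10 of 24 cases (41.7%) and fell in 6 (25%), beside 31.3% and 31.8% of all tested genes. PPARA, a lipid-sensing nuclear receptor, rose by 1.67 ± 0.13, and the carnitine transferases CPT1A and CPT2 by 0.56 ± 0.046 and 0.72 ± 0.074. ACSL3, which activates fatty acids for lipid synthesis, fell (-0.98 ± 0.064), as did the other ACSL genes of the list. LTC4S, leukotriene C4 synthase, was 0.515, 0.415 and 0.179 CPM with vehicle, near the detection floor, and 4.13, 3.24 and 4.10 CPM with selinexor (3.34 ± 0.49). In its list, leukotriene and prostaglandin synthesis, 7 of 11 genes rose and 4 fell (PLA2G4A, PTGS2, PTGES2 and PTGES3). Peroxisomal genes rose in 13 of 27 cases and fell in 3. By DESeq2's Wald test, 8 rose.

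**Figure D3:**
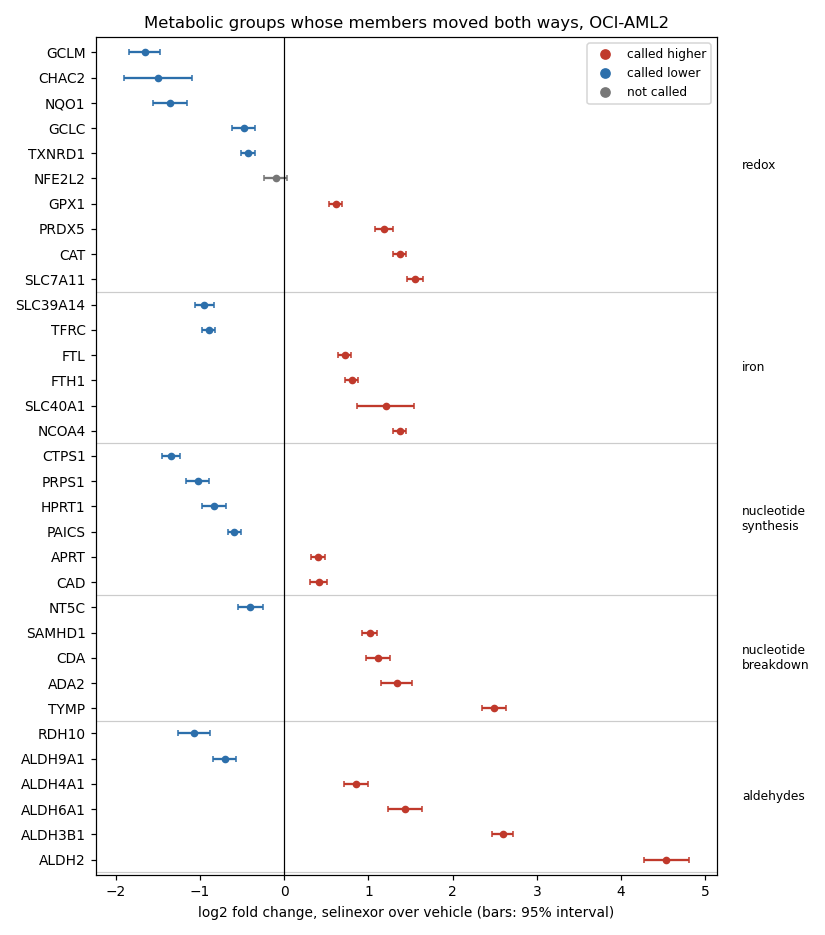
Log2 fold changes (selinexor over vehicle) with 95% intervals for redox, iron, nucleotide and aldehyde genes, red for genes called higher, blue for those called lower and grey for NFE2L2, which was not called. Each group holds genes on both sides of 0, with GCLM lowest and SLC7A11 highest among the redox genes.

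Most lysosomal genes rose. Of 40 hydrolases and cofactors, 32 rose (80.0%) and 3 fell, with a median log2 fold change of 0.59. PSAP, the precursor of the saposins that present sphingolipids to hydrolases, was 173, 172 and 179 CPM with vehicle and 557, 546 and 536 CPM with selinexor. Its log2 fold change was 1.65 ± 0.040 (adjusted p = 1.3e-32) and the groups did not overlap. GM2A, the activator of ganglioside GM2 breakdown, was 56.2, 62.3 and 54.1 CPM with vehicle and 199, 192 and 203 CPM with selinexor (1.78 ± 0.055), likewise without overlap. The peptidase TPP1 (1.43 ± 0.053), the glycogen-degrading glucosidase GAA (1.53 ± 0.065), the mannosidase MAN2B1 (1.06 ± 0.048) and the protective protein CTSA (1.13 ± 0.041) rose. CTSC, which activates granule serine proteases (-0.31 ± 0.045), ARSB (-0.22 ± 0.069) and SCPEP1 (-0.22 ± 0.083) fell, SCPEP1 not by DESeq2 (adjusted p = 0.0717), with upper quartile scaling or without selinexor library 2.

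The lysosomal membrane followed in part, with 13 of 23 genes higher and 3 lower. LAPTM5, a lysosomal protein of blood cells, rose by 1.15 ± 0.041, the proton pump accessory ATP6AP1 by 0.81 ± 0.043 and the chloride transporter CLCN7 by 0.81 ± 0.040. OSTM1, the partner subunit of CLCN7, fell by 0.63 ± 0.086, and TMEM192 (-0.22 ± 0.074) and LAPTM4B (-0.28 ± 0.074) also fell. LAMP2 rose (0.37 ± 0.041), and the other major membrane glycoprotein, LAMP1, was at -0.07 ± 0.040 (adjusted p = 0.129). Without vehicle library 2 LAMP1 passed as lower (-0.10, adjusted p = 0.0215). Of the MiT/TFE transcription factors known to drive lysosomal genes, TFEB (0.11 ± 0.11, adjusted p = 0.394) and TFE3 (0.08 ± 0.094, adjusted p = 0.490) did not pass the test, and MITF fell (-0.61 ± 0.18).

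These 4 lysosomal promoters are shown because MiT/TFE factors bind sequences with the core CACGTG, and each holds it more than once. Each is the 250 bases before the RefSeq start on GRCh38.p14, 5′ to 3′ on the strand of the gene, with CACGTG in capitals. CTSA lies at chr20:45891085-45891334, plus strand, GAA at chr17:80101331-80101580, plus strand, CLCN7 at chr16:1475029-1475278, minus strand and LAMP1 at chr13:113296989-113297238, plus strand.
CTSA: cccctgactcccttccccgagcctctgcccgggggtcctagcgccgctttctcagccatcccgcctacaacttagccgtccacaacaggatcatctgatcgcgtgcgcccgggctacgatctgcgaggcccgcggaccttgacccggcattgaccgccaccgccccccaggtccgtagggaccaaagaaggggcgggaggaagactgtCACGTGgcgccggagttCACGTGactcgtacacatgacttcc
GAA: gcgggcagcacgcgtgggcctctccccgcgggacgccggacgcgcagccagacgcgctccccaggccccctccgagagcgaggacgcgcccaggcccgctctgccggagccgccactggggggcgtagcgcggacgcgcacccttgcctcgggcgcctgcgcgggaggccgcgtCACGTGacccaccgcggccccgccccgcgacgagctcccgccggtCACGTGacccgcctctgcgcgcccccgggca
CLCN7: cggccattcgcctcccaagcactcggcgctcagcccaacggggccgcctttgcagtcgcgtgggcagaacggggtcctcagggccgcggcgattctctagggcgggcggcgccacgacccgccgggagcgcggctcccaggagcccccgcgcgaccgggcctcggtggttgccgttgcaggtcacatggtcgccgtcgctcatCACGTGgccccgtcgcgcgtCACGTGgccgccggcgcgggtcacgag
LAMP1: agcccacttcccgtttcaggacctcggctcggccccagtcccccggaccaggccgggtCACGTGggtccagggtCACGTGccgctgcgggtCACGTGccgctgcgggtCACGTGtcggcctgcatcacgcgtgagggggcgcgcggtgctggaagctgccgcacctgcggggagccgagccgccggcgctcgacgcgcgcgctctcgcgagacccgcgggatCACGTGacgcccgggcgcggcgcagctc
CTSA, GAA and CLCN7 have 2 matches each and rose, whereas LAMP1 has 5 and did not pass the test. The letters CACGTG, which read the same on both strands, were found in 7 of 27 hydrolase promoters (25.9%) and 6 of 20 membrane protein promoters (30%), beside 9.16% of tested genes and 6.49% of all promoters in the table. Shares close to these stood in lists with more falls than rises, such as translation factors (7 of 31, 22.6%) and SR and hnRNP genes (8 of 38, 21.1%), and in circadian genes (3 of 13, 23.1%), so the letters were not found in lysosomal lists alone. The longer TCACGTG, which contains it, was found in 25.9% and 25%, beside 5.39% of tested genes. It too stood in other lists, among them calpains (2 of 8, 25%), N6-methyladenosine genes (3 of 14, 21.4%) and translation factors (5 of 31, 16.1%). Among the 47 lysosomal genes with a promoter entry, 10 of the 13 with CACGTG rose, and 22 of the 34 without it. The median log2 fold changes were 0.58 and 0.46. A match is a description of the sequence only.

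Phagocyte oxidase genes were higher. The oxidase transfers electrons from NADPH to oxygen in the phagosome. CYBB, its catalytic subunit, was 236, 241 and 226 CPM with vehicle and 538, 559.8 and 548 CPM with selinexor, a log2 fold change of 1.23 ± 0.040. Every selinexor library lay above every vehicle library. NCF1 (1.85 ± 0.10), which has near-identical pseudogene copies that can share its reads, NCF4 (0.62 ± 0.043) and CYBA (0.83 ± 0.046) rose too. RAC2, the GTPase of the haematopoietic oxidase, rose by 0.50 ± 0.041, and the widely expressed RAC1 fell by 0.39 ± 0.042, so that 7 of 8 genes rose.

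Receptors of innate immunity rose at several levels. Among Toll-like receptors and their adaptors, 14 of 20 rose. TLR8, an endosomal sensor of single-stranded RNA, was 0.618, 0.747 and 1.43 CPM with vehicle and 17.6, 16.7 and 12.9 CPM with selinexor, a log2 fold change of 4.04 ± 0.30 from a level near the detection floor. TLR7, its neighbour in sequence and function, changed by 1.71 ± 0.53 and TLR2, which senses lipopeptides, by 1.24 ± 0.060. Downstream, the kinase IRAK1 (-0.82 ± 0.042) and the adaptor MYD88 (-0.24 ± 0.066) fell, and the surface receptor CD180 fell by 0.67 ± 0.13, although its partner LY86 rose by 1.23 ± 0.096. In the list of ITAM adaptors and their kinases, 17 of 25 genes rose. The list is broader than its name, and the 17 include FCGRT, the phosphatases INPP5D and PTPN6, and DOK1, DOK2 and DOK3. TYROBP, an adaptor of activating receptors, was 80.3, 80.9 and 78.6 CPM with vehicle and 249, 254 and 264 CPM with selinexor (1.68 ± 0.047, adjusted p = 2.8e-30). FCGRT, the neonatal Fc receptor (2.68 ± 0.15), rose, while FYN (-0.28 ± 0.063), CSK (-0.38 ± 0.040), PAG1 (-0.56 ± 0.057) and VAV3 (-0.62 ± 0.12) fell.

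Inhibitory and paired receptors rose in 12 of 25 cases, among them LAIR1 (0.57 ± 0.047) and SIRPA (0.54 ± 0.041), the receptor for CD47. CD300A (-1.21 ± 0.17), LILRA1 (-0.39 ± 0.10) and CLEC5A (-0.38 ± 0.083) fell. In the inflammasome list, 10 of 21 rose, including the sensor NLRP3 (0.62 ± 0.042), the adaptor PYCARD (0.51 ± 0.044), the pore-forming GSDMD (0.81 ± 0.052) and the cytokine IL18 (1.08 ± 0.17). CASP1, the protease that cleaves IL18 and GSDMD, fell (-0.48 ± 0.074), as did NLRC5 (-0.30 ± 0.057). HLA class I and peptide loading genes rose in 10 of 14 cases. HLA-B (0.90 ± 0.038) and B2M (0.61 ± 0.040) were among them, and TAP2 (-0.99 ± 0.13), a subunit of the peptide transporter, and PDIA3 (-0.22 ± 0.038) fell. HLA genes are alike in sequence, so their reads may be shared. The antiviral deaminases APOBEC3F (2.07 ± 0.45) and APOBEC3G (1.30 ± 0.24) rose, and APOBEC3B fell (-1.12 ± 0.26).

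Complement and granule genes made up some of the larger gains. CFD, complement factor D, was 91.8, 105 and 101 CPM with vehicle and 665, 623 and 639 CPM with selinexor. That is a log2 fold change of 2.69 ± 0.045 (adjusted p = 1.4e-37), with the groups well apart. C3, the central component, changed by 2.23 ± 0.39. Of 23 complement genes listed, 9 passed the filter on low counts and 7 of these rose. Genes that passed only through the selinexor libraries had to be higher, which weighs on this count. CFD lies on chromosome 19 (859664 to 863641) beside the granule protease genes AZU1 (827837 to 832018), PRTN3 (840999 to 848175) and ELANE (852303 to 856243, all GRCh38). AZU1, which encodes azurocidin, was 875, 917 and 903 CPM with vehicle and 3192, 3159 and 3227 CPM with selinexor (1.83 ± 0.037). ELANE rose by 0.56 ± 0.089, while PRTN3, between them, fell by 0.22 ± 0.050. These neighbours thus spanned small falls to large rises.

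**Figure D4:**
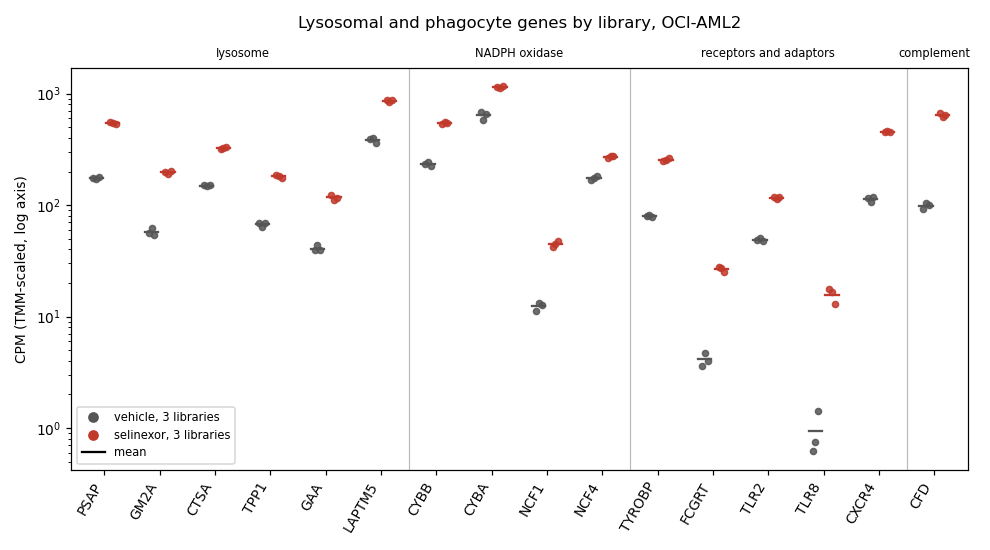
CPM of lysosomal, NADPH oxidase, receptor and complement genes in each vehicle (grey) and selinexor (red) library on a log axis, with bars at group means. The 3 selinexor points lie above the 3 vehicle points for each gene drawn, and TLR8 starts from the lowest level.

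Of 36 chemokine and chemokine receptor genes listed, 14 passed the filter and 9 of these rose. As with complement, genes that passed only through the selinexor libraries weigh on this count. CXCR4, which holds blasts and stem cells in the marrow, was 115, 106 and 119 CPM with vehicle and 452, 458 and 458 CPM with selinexor. The 2 groups did not overlap, and the log2 fold change was 2.01 ± 0.044. The anaphylatoxin receptor C3AR1 (2.20 ± 0.24) rose as well. Cytokine and growth factor receptors rose in 22 of 39 cases and fell in 7. The G-CSF receptor CSF3R (1.38 ± 0.045) and MERTK (2.62 ± 0.34), a receptor for apoptotic cells, rose, and IL6R fell (-0.64 ± 0.041). NGFR, the low-affinity neurotrophin receptor, had 0 counts in all 3 vehicle libraries and 226, 249 and 267 counts with selinexor. Against a floor of 3 counts per library (mean level over mean floor) it was at least 98.66-fold higher. NGFR overlaps antisense transcripts over 1126 exonic bases, and reads of the 2 strands cannot be told apart here.

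Most genes of the adhesion list and many actin-binding genes rose. SELPLG, the P-selectin ligand, rose by 1.36 ± 0.053 and CD37, a tetraspanin, by 1.27 ± 0.043, within 19 of 26 adhesion genes that rose. Among integrins, ITGA2B (3.32 ± 0.26), the platelet subunit, and ITGAX (1.03 ± 0.25) rose, while ITGAL (-0.54 ± 0.039) and ITGAE (-0.72 ± 0.094) fell. Actin-binding genes rose in 28 of 51 cases and fell in 9. The rises included the capping protein CAPG (1.85 ± 0.062) and gelsolin GSN (1.40 ± 0.069). SPTBN1, which encodes a spectrin of the membrane skeleton, was 42.9, 50.9 and 40.4 CPM with vehicle and 8.26, 10.7 and 6.63 CPM with selinexor. It was lower in every selinexor library, with a log2 fold change of -2.39 ± 0.14. CAPN5, a calpain protease, was 1.03, 0.415 and 0 CPM with vehicle and 14.6, 16.0 and 11.5 CPM with selinexor, a log2 fold change of 4.90 ± 0.56 that was 5.94 without vehicle library 1 and 4.31 without vehicle library 3.

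In signalling, regulatory subunits of PI3-kinase moved in opposite directions. PIK3R3, a regulatory subunit of class IA PI3-kinase, was 14.9, 14.0 and 14.8 CPM with vehicle and 3.78, 2.91 and 2.31 CPM with selinexor (-2.29 ± 0.20), lower in each selinexor library. The regulatory subunits of the G-protein-activated form, PIK3R5 (1.03 ± 0.058) and PIK3R6 (2.41 ± 0.55), and the phosphatase INPP4B (1.12 ± 0.079) rose. In this list 23 of 52 rose and 12 fell. ARRDC3, an alpha-arrestin that targets receptors for degradation, was 4.43, 4.06 and 3.32 CPM with vehicle and 97.2, 106 and 107 CPM with selinexor, a log2 fold change of 4.72 ± 0.13 with no overlap. Its relative TXNIP rose by 0.84 ± 0.056, while the ligases NEDD4 (-0.70 ± 0.10) and NEDD4L (-1.08 ± 0.18), which alpha-arrestins recruit, fell. Protein kinase C and diacylglycerol genes moved in 4 cases up and 6 down of 19. The falls were 3 by DESeq2, with upper quartile scaling, and without vehicle library 2, selinexor library 2 or selinexor library 3.

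Transcription factor genes changed in both directions. ID3, an inhibitor of basic helix-loop-helix factors, was 3.50, 3.57 and 3.77 CPM with vehicle and 0.590, 0.431 and 0.631 CPM with selinexor. It was lower in each selinexor library, with a log2 fold change of -2.69 ± 0.43. BATF3, a factor of dendritic cell development, fell by 1.53 ± 0.19. CEBPA (0.60 ± 0.038) and CEBPD (0.85 ± 0.044), which drive granulocytic and monocytic genes, rose, and SPI1, which encodes PU.1, rose by 0.25 ± 0.039. MYB and LMO2, known from progenitor cells, rose too. Of 45 myeloid factors, 19 rose and 9 fell. AP-1, EGR and MAP kinase feedback genes sat at the background, 8 higher and 9 lower of 28. Members chosen after their values were seen were EGR1 (-1.33 ± 0.19), DUSP5 (-1.36 ± 0.25) and SPRY1 (-1.01 ± 0.30), which fell, and DUSP4 (1.09 ± 0.14), which rose. DUSP6 (0.60 ± 0.071) also rose. Clock genes were balanced, 5 higher and 5 lower of 15, with ARNTL at -0.84 ± 0.20 and NR1D2 at 0.78 ± 0.15. Among chromatin genes, SWI/SNF, CHD and ISWI remodellers fell in 14 of 30 cases (46.7%) and rose in 6 (20%). CHD7 (-0.97 ± 0.063) was the lowest, whereas SMARCD3 rose (1.38 ± 0.15). Demethylases and deacetylases rose in 15 of 35 cases (42.9%) and fell in 6 (17.1%), with SIRT2 at 0.86 ± 0.068.

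Membrane lipid, secretory and developmental signalling lists held members on both sides. Sphingolipid genes rose in 14 of 32 cases and fell in 6; SPTLC2, of the first enzyme, rose (0.65 ± 0.041) and UGCG, which makes glucosylceramide, fell (-0.71 ± 0.074). N-glycosylation genes rose in 12 and fell in 9 of 32, with the mannosidases MAN1B1 (1.00 ± 0.064) and MAN1A1 (-1.08 ± 0.12) on opposite sides. Genes of export from the endoplasmic reticulum fell in 17 and rose in 6 of 34 cases, with the coat subunit SEC24A (-0.58 ± 0.079) among the falls. Cullin ligase genes rose in 8 and fell in 11 of 31. There, FBXO32 (1.70 ± 0.23), an F-box protein known from muscle wasting, rose and SKP2 (-0.74 ± 0.056), which targets a cyclin-dependent kinase inhibitor, fell. Semaphorin and plexin genes rose in 9 and fell in 1 of 17 cases, with the receptor PLXNA3 at 1.44 ± 0.15. G protein genes rose in 17 and fell in 11 of 37, and the cAMP phosphodiesterase PDE4B rose by 1.44 ± 0.10. Wnt and Notch genes rose in 11 of 30 cases (36.7%), near the 31.3% of all tested genes, and fell in 5 (16.7%). The receptors NOTCH1 (0.59 ± 0.056) and NOTCH2 (0.60 ± 0.061) were among the rises. TGF-beta pathway genes rose in 12 and fell in 9 of 29, with TGFBI (0.95 ± 0.15), an extracellular matrix protein, higher and BMP6 (-0.68 ± 0.12) lower.

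Some of the largest single rises lay outside these lists. PTAFR, the receptor for platelet-activating factor, was 6.90, 5.89 and 5.92 CPM with vehicle and 68.8, 68.6 and 67.7 CPM with selinexor. Its log2 fold change was 3.46 ± 0.11, and the groups did not overlap. DEFB1, a defensin, was 25.8, 19.4 and 21.1 CPM with vehicle and 221, 251 and 239 CPM with selinexor (3.44 ± 0.077). TCN1 (3.18 ± 0.18), the vitamin B12 carrier of neutrophil granules, LGALS3 (3.04 ± 0.17), a galectin of macrophages, and FBP1 (2.99 ± 0.20), an enzyme of gluconeogenesis, also rose more than 2-fold. FCER2 (2.97 ± 0.18), the low-affinity IgE receptor, and MYORG (3.72 ± 0.16), a glycosidase, belonged to the same set.

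Large falls outside the lists included genes of several functions. LRRC4, a leucine-rich repeat membrane protein, was 25.6, 27.2 and 28.1 CPM with vehicle and 1.89, 2.59 and 2.94 CPM with selinexor (-3.43 ± 0.19). HMGB1, an abundant chromatin protein, was 972, 951 and 925 CPM with vehicle and 347, 357 and 362 CPM with selinexor. The groups did not overlap, with a log2 fold change of -1.42 ± 0.039 (adjusted p = 1.5e-30). GPR84 (-1.83 ± 0.14), a receptor for medium-chain fatty acids, and S1PR3 (-1.56 ± 0.12), a sphingosine phosphate receptor, fell. The fatty acid transporter SLC27A4 (-1.68 ± 0.098), the desaturase FADS1 (-1.40 ± 0.045), the RNA polymerase III subunit POLR3G (-1.64 ± 0.11) and RCAN1 (-1.46 ± 0.12), an inhibitor of calcineurin, fell too. FADS1 overlaps FADS2 on the other strand, whose reads cannot be separated from it.

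**Figure D5:**
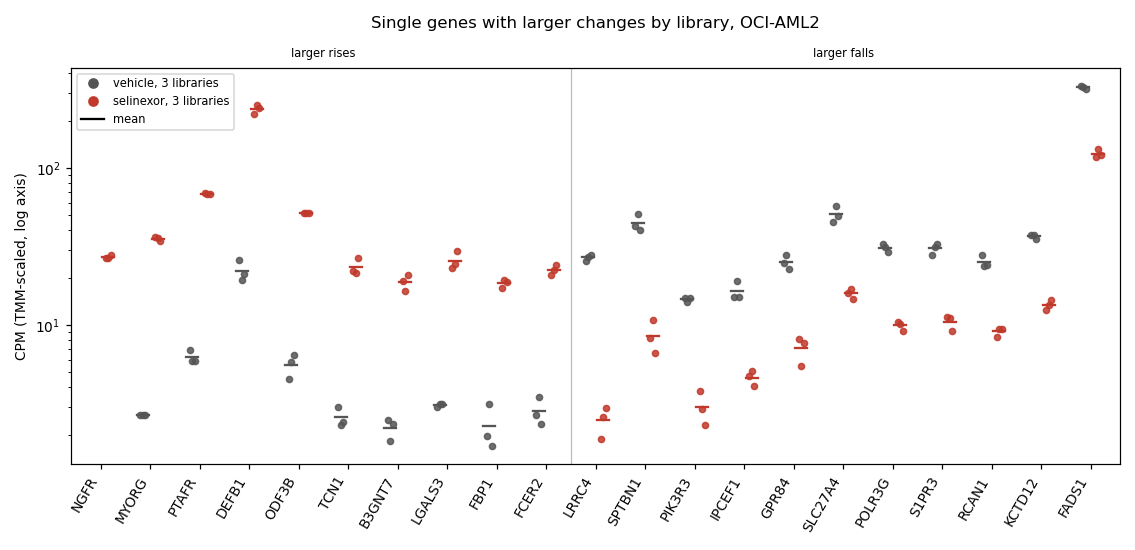
CPM of single genes with larger rises (left) and larger falls (right) in each vehicle (grey) and selinexor (red) library on a log axis, with bars at group means. The groups do not overlap for any gene drawn, and the vehicle values of NGFR are 0 and have no place on the log axis.

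By CPM gained, LYZ led. This gene encodes lysozyme and took 0.165 to 0.184% of all counts in vehicle libraries and 0.922 to 0.953% in selinexor libraries (2.47 ± 0.040). SRGN, the proteoglycan of secretory granules, rose from between 0.299 and 0.313% to between 0.992 and 1.05% (1.80 ± 0.038). Ribosomal proteins such as RPL13A (0.67 ± 0.098) and RPS18 (0.67 ± 0.041), and TPT1 (0.63 ± 0.038), were among the other gains. Outside the genes set aside, the largest losses in CPM came from the chaperone HSP90AB1, from 4247 ± 44.5 CPM with vehicle to 3059 ± 43.8 CPM with selinexor (SD, n = 3), and from PTMA, from 2915 ± 86.2 CPM with vehicle to 2082 ± 58.1 CPM with selinexor (SD, n = 3). NCL, the nucleolar protein nucleolin (-0.68 ± 0.037), the splicing regulators HNRNPA1 (-0.61 ± 0.037) and HNRNPA2B1 (-0.58 ± 0.039), and LDHA (-0.81 ± 0.038) followed. ACTB (-0.12 ± 0.038) was also in this group, but it missed the threshold with upper quartile scaling (adjusted p = 0.137) and without selinexor library 2 (adjusted p = 0.0548).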

How the data were processed

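The 6 OCI-AML2 libraries were analysed from a table of raw counts per gene symbol that the authors deposited, whole numbers without normalization. Reads were aligned with STAR to hg38, per the submitters' processing notes, which also name R 3.6.1 and DESeq2. The counting tool is not given in the sources used here, nor is the annotation. The labels' protocols give poly(A) selection without strand information, so reads of overlapping genes on opposite strands cannot be told apart. The line was read from the initial in the name of the table and the treatment from the letter heading each column. Since no column has a replicate number, libraries are numbered in column order as names only. No 2 libraries held identical counts. P-values weigh the difference between the groups against the spread between these libraries, an estimate of which is moderated across genes.

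The tests were run in edgeR 4.0.16 under R 4.3.3 (TMM, filterByExpr with minimum count 10 and total 15, robust quasi-likelihood F tests, treatment as the only term, Benjamini-Hochberg adjusted p under 0.05). Standard errors are Wald errors from the fitted weights. Filtered genes took 0.0996% of all counts. In simulated counts, 77.9% of 77 genes changed 1.5-fold, 92% of 50 changed 2-fold and 98.57% of 70 changed 4-fold were recovered. There were 20 false calls among 11975 genes. Far fewer genes changed there than in these data, so the simulation does not check scaling or error rates under so broad a shift. Gene lists and members were chosen with earlier results of these data known, and lists are described by counts and medians with no set test. A gene that passed the filter only through the group where it was high had to differ. This weighs on counts in lists of low genes, such as the complement and chemokine lists.

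Genes were named by a rule: called, at a mean of 5 CPM or more and with non-overlapping groups, for the 30 largest rises and falls and the 10 largest gains and losses in CPM. Added were up to 6 called members of each list by smallest p (2 of a list with none called), members against the majority where 5 or fewer, genes at 0 counts in 1 group with at least 10 in each library of the other, and XPO1. Histone, cell cycle and p53 genes were left out of the first part. TFEB, TFE3, MITF, LAMP1, LAMP2, NFE2L2, TLR7, IL18, ID3, EGR1, DUSP4, DUSP5, SPRY1, MERTK, SLC40A1, SLC7A7, PIK3R6, PSMA6, TXNRD1, GCLC, ITGAX, PRTN3, ELANE, MRPL44 and SPI1 fell outside the rule and were added after their values were seen. A few genes and 1 list are not reported here. Positions and promoters come from RefSeq on GRCh38.p14, matched by symbol for 11913 of 12086 tested genes (98.6%), of which 9701 had a promoter entry, and antisense overlaps from GENCODE 29. The 12 alternatives were no filter on low counts, upper quartile scaling, size factors of DESeq2 1.42.0, its Wald test, voom (limma 3.58.1), thinning to the smallest library, and leaving out each library in turn.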

Additional observations from a re-analysis of the deposited data

How the results depend on the processing

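Of 71 counts of genes, 65 stayed within 1.5 times of the reported value in each of the 12 alternatives, and 476 of 490 single genes kept their direction and their side of the threshold. No called gene reversed. Genes called higher among the immunoproteasome and PA28 genes numbered 3 with upper quartile scaling, 2 after thinning to the smallest library and 1 to 2 when a library was left out, against 1 as reported. Peroxisomal genes called higher numbered 8 by DESeq2's Wald test. N6-methyladenosine genes called lower numbered 4 with upper quartile scaling, 5 by DESeq2's Wald test and 5 to 8 when a library was left out. Iron genes called lower numbered 5 to 9 when a library was left out. Protein kinase C and diacylglycerol genes called lower numbered 3 with upper quartile scaling, 3 by DESeq2's Wald test and 3 to 6 when a library was left out. Epithelial, endothelial and fibroblast markers called higher numbered 2 with no filter on low counts. The cause of these shifts was not tested. Fold changes of genes with 0 counts in a group (NGFR, GABRG1, LOC100288866) depended on the tool, since they rest on a prior count. No paired analysis was possible because the columns carry no replicate numbers. Depth limits the genes near 0.249 to 0.354 CPM, the level of 3 counts.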

Other observations

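GABRG1, a subunit of the GABA type A receptor, had 22, 15 and 29 counts in the vehicle libraries and 0 in the selinexor libraries, at least 6.15-fold lower against 3 counts per library. LOC100288866, an uncharacterised transcript, had 0 counts with vehicle and 21, 30 and 21 with selinexor, at least 9.57-fold higher.

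Shares of called genes by biotype are given as a description, with no test of the difference. Of 559 long non-coding RNA genes tested, 30.4% were higher and 17.4% lower, beside 31.6% and 33.0% of 11179 protein-coding genes. The biotypes come from the matched annotation.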
